A study of Mus musculus with 4 samples.

Results

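The dorsal cortex of the mouse embryo makes glutamatergic neurons, but a small group of cells in its single-cell library carried the genes of GABAergic neurons instead. These cells were picked from the cortex (CTX) library among barcodes with more than 1000 detected genes, less than 5% mitochondrial UMIs (unique molecular identifiers, each counting 1 captured transcript) and less than 1% Hbb hemoglobin UMIs. A cell was taken when it held at least 1 UMI in 2 or more of Gad2, Dlx1, Dlx2, Dlx5 and Lhx6, and 0 UMIs of Neurod6. Gad2 encodes a GABA-synthesizing enzyme, the Dlx genes encode homeobox transcription factors of the ventral forebrain, Lhx6 encodes a LIM homeobox factor of interneurons from the medial ganglionic eminence, and Neurod6 marks glutamatergic neurons. The gate took 66 of the 4418 kept CTX cells, which is 1.49% (exact Clopper-Pearson 95% interval 1.16% to 1.90%), and they are called gated CTX cells here. All 4 libraries together kept 18957 cells.

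Cells were profiled from wild-type (wt) C57BL/6 embryos at E12.5 with the 10X Genomics droplet platform, 1 library each from CTX and from 3 ventral swellings, the ganglionic eminences named medial (MGE), lateral (LGE) and caudal (CGE). Per the methods of the study, tissue was pooled over embryos, and per the labels, live DRAQ5+/DAPI- cells were collected on a sorter, whereas the methods describe wild-type cells as not sorted. With 1 library per region no test between regions is possible, and a library cannot be told apart from its region. Intervals on shares are exact binomial and intervals on levels are exact Poisson; all are 95% intervals and cover counting error only. Where no cell or UMI was seen, the share or level said to be allowed is that of 3 counts.

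Cortical GABAergic interneurons are born outside the cortex, in the ganglionic eminences, and reach it by tangential migration. The MGE, patterned by the transcription factor Nkx2-1, gives rise to interneurons that keep Lhx6 and later make somatostatin or parvalbumin. The CGE gives rise to interneurons marked by Nr2f2 and Prox1, and the LGE mainly to striatal and olfactory neurons. Cells on the way are guided in part by the chemokine receptors Cxcr4 and Ackr3.

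The gated CTX cells were shallower than their neighbors. Their median depth was 5407 UMIs (range 1482 to 34215) with a median of 2557.5 genes, against a median of 8427.5 UMIs in the 4352 other CTX cells. By library, kept cells had a median of 8375 (CTX), 7167 (LGE), 7492 (MGE) or 7080 (CGE) UMIs. Shares of cells with a UMI are therefore given, unless stated otherwise, after thinning each cell to 3000 UMIs, which left 55 of the 66 gated CTX cells. Thinning before applying the gate left 50 of 4029 CTX cells passing (1.24%, 0.922% to 1.63%). The CTX library shared 15 cell barcodes with LGE, 12 with MGE and 12 with CGE, and 1 of those shared with MGE was a gated CTX cell. A simulated-doublet score marked 246 CTX cells, 4 of them gated.

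The gate that passed 1.49% of CTX cells passed 90.8% of the cells in MGE, 85.5% in LGE and 84.0% in CGE. In CTX it fell mostly on neurons: 57 of the 1000 cells with high Dcx, a microtubule protein of migrating neurons, passed (5.70%, 4.35% to 7.32%), against 5 of 1160 cells with high Nes, the intermediate filament of neural progenitors (0.431%, 0.140% to 1.00%). High means above 1.5 in the natural log of 1 plus UMIs scaled to a fixed total per cell, as the study's methods set it. The 57 high-Dcx cells made up 86.4% of the gated CTX cells.

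**Figure D1:**
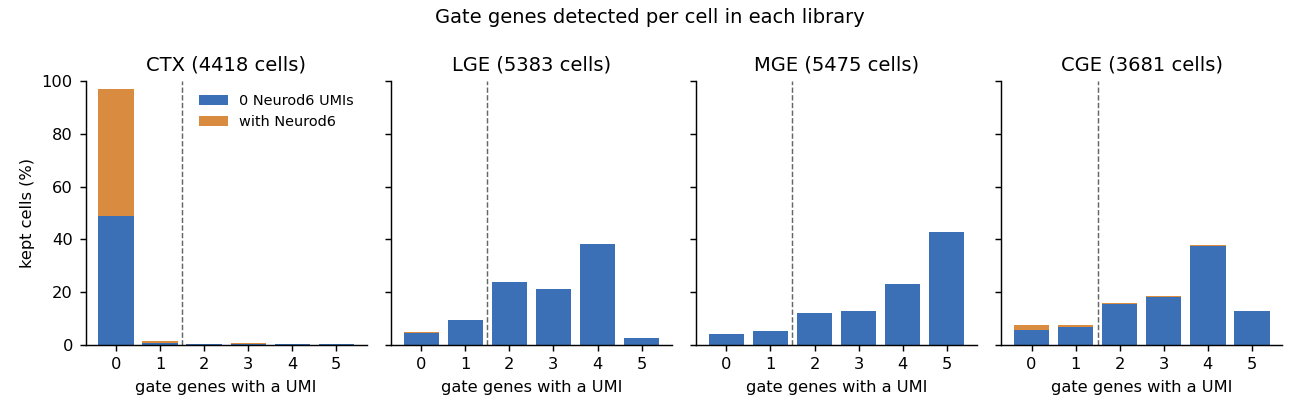
Share of kept cells (y axis, percent) by the number of the 5 gate genes with a UMI (x axis) in each library, split by cells with and without a Neurod6 UMI; the dashed line marks the threshold of 2 genes. In CTX nearly all cells sit at 0 gate genes, whereas in LGE, MGE and CGE most cells sit at 2 or more.

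The gate genes themselves are described here without any reading, since they chose the cells. Among the gated CTX cells, 12 held exactly 2 gate genes, 21 held 3, 19 held 4 and 14 held all 5. Gad2 was seen in 55 cells, Dlx5 in 47, Dlx1 and Lhx6 in 44 each and Dlx2 in 43. Just inside the threshold, the 12 cells with exactly 2 gate genes held 2 to 5 gate UMIs, all 12 had Dcx, 7 had Maf, 6 had Sst and 2 had Nes. Just outside, 30 cells had exactly 1 gate gene and no Neurod6; 24 of these had Nes, 23 had Meis2, 3 had Dcx, 2 had Maf and 1 had Sst. Another 11 cells passed the gate on GABAergic genes but held Neurod6, 8 of them a single UMI; 10 of the 11 had Dcx, 9 had Maf and 7 had Sst, and 3 were predicted doublets.

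The label of GABAergic cells was checked against markers outside the gate. Of the 5 markers Gad2, Dlx5, Lhx6, Sst and Npy, only the neuropeptide genes Sst (somatostatin, chr16:23889573-23890958, minus strand, GRCm38) and Npy (neuropeptide Y, chr6:49822710-49829507, plus strand) were not used to pick cells. At full depth 47 of the 66 gated CTX cells had an Sst UMI and 19 had an Npy UMI. After thinning, Sst was seen in 35 of 55 (63.6%, 49.6% to 76.2%) and in 11 of 3974 other CTX cells (0.277%, 0.138% to 0.495%). At full depth the other CTX cells include the 11 cells left out only for Neurod6, 7 of which had Sst. Sst was seen in 1 of 1026 high-Nestin CTX cells, whose median depth before thinning was 8579 UMIs, and in 0 of 87 non-neural CTX cells, which allows a share of up to 3.45%. The 0.0975% in high-Nestin cells is set beside the share in gated cells, and the part of free Sst RNA in the droplets was not tested. Whether these cells had migrated into the cortex was not measured by these libraries.

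Markers of non-neural cell types were mostly at 0. All 8 microglial and macrophage genes and all 5 choroid plexus and hem genes were at 0 UMIs, 7 of 8 pericyte and mesenchyme genes and 6 of 7 endothelial genes were at 0, and those 2 lists summed to 1 and 3 UMIs. Cajal-Retzius genes summed to 22 UMIs with 8 of 10 genes at 0. Red blood cell genes, mainly hemoglobins, summed to 54 UMIs or 139 CPM (UMIs scaled to counts-per-million) with 3 of 9 at 0, against 94.1 CPM in the other CTX cells. The lists of the cortical neuron lineage had reduced sums rather than sums of 0. The 16 cortical glutamatergic genes summed to 449 UMIs or 1159 CPM, against 4857 CPM in the other CTX cells, and 8 genes of Eomes intermediate progenitors to 214 against 1479 CPM. Most of the glutamatergic sum in the gated cells came from Mef2c, Nfib and Lhx2, described below. Mef2c also stands on the MGE lineage list, so the sum does not measure glutamatergic identity. Within those lists the defining factors were nearly at 0, as Neurod2 and Tbr1 of glutamatergic neurons each had 1 UMI over the 66 cells and Eomes of intermediate progenitors had 2. The gate asked for 0 Neurod6 UMIs, so cells with these factors beside Neurod6 were left out, and the low counts are partly set by the selection. Of the 11 cells left out only for Neurod6, 4 had Neurod2 and 3 had Tbr1. The part of these marker lists in the results below was not tested.

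Cell by cell, the group shared a set of lineage genes but differed widely in neuropeptides. Tubb3, neuronal tubulin, was found in 65 (median 20.5 UMIs, maximum 42) and Dcx in 62 (median 4, maximum 12). Nxph1, a secreted neurexin ligand of MGE-derived neurons (chr6:8948431-9249032, plus strand), was found in 59 cells (median 4, maximum 12). Maf, a transcription factor of MGE-derived interneurons, was found in 54 cells (median 2, maximum 11).

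Sst was uneven. It ranged from 0 to 43 UMIs per cell with a median of 3; 19 cells had none, 18 had 1 to 3 UMIs, 10 had 4 to 10 and 19 had more than 10. Of its 492 UMIs, 36.2% lay in 5 cells. Npy was more concentrated still, with 74 UMIs in 19 cells, a maximum of 14 and 60.8% of the UMIs in 5 cells. The 2 peptides overlapped: 17 cells had both, 2 had Npy without Sst and 17 had neither.

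Most cells without an Sst UMI still carried other lineage genes. Of the 19 cells without Sst, 15 had Maf, 15 had Nxph1 and 12 had Erbb4, the neuregulin receptor of migrating interneurons. Counting Maf, Sst, Nxph1, Erbb4 and the SRY-box factor Sox6 together, 1 gated CTX cell had 0 of the 5, 3 cells had 1, 7 had 2, 14 had 3, 25 had 4 and 16 had all 5.

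**Figure D2:**
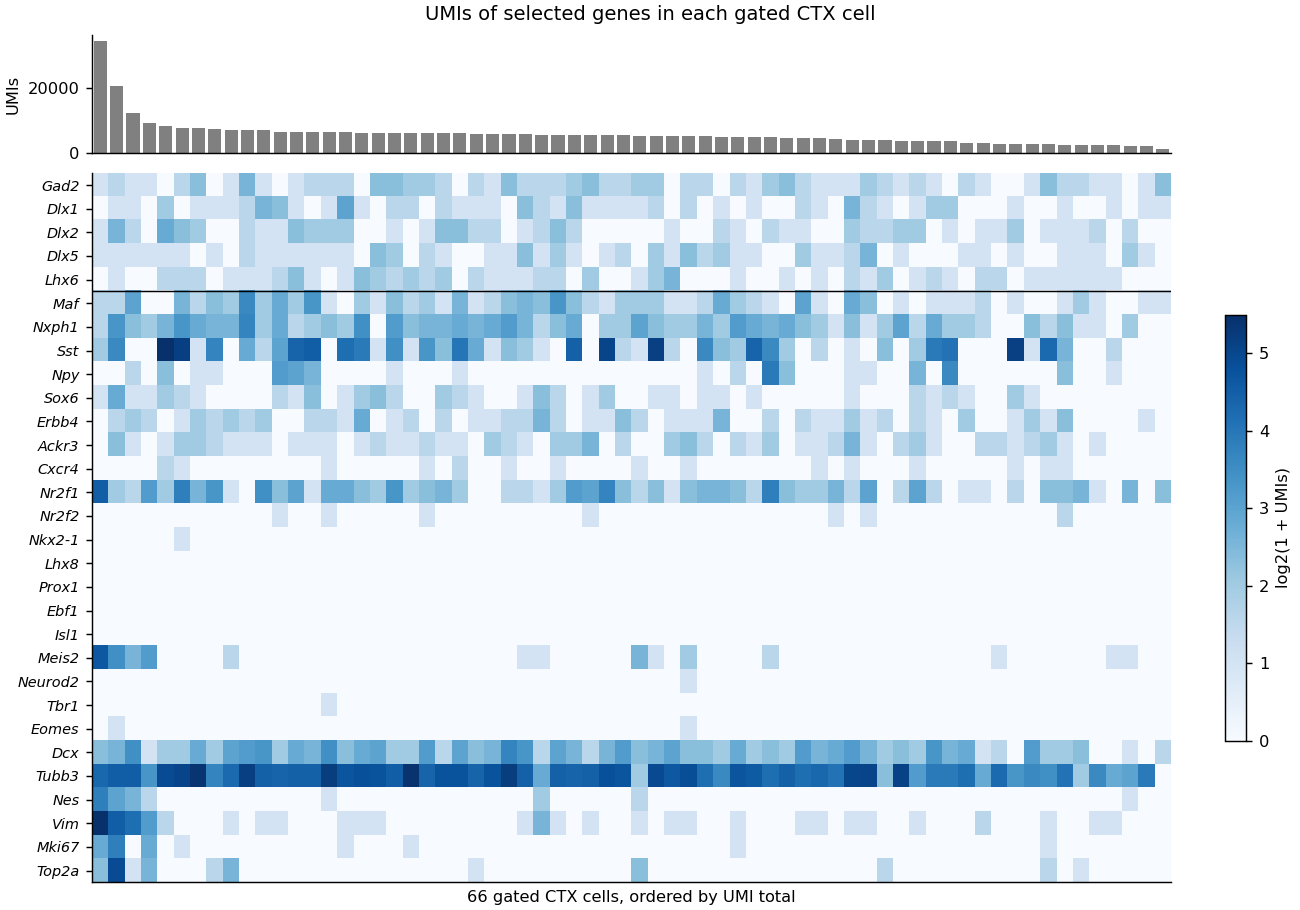
UMIs of selected genes (rows, log2(1 + UMIs)) in each of the 66 gated CTX cells (columns, ordered by UMI total), with the UMI total of each cell in the upper panel; the line separates the 5 gate genes from the rest. Nxph1 and Maf fill most columns, Sst and Npy fill only part of them, and Nes, Vim, Mki67 and Top2a gather in the deepest cells at the left.

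Progenitor and cell-cycle RNA sat in a few deep cells. The 4 gated CTX cells above 9000 UMIs (9296 to 34215; the next had 8289) held 19.6% of the group's UMIs, and 3 of them were predicted doublets. They held 79.4% of its Nes UMIs, 90.5% of Pax6 (a radial glia transcription factor), 83.3% of Mki67 and 69.6% of Top2a (both proliferation genes). The summed level of 14 radial glia genes was 1409 CPM over all 66 cells and 723 CPM without these 4, and that of 16 cell-cycle genes was 1417 and 524 CPM. The summed level of 18 MGE lineage genes went the other way, from 6600 to 7491 CPM. All 4 deep cells had Nxph1 and Sox6, 3 had Maf and 2 had Sst. Their part in each result below was measured by leaving them out.

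Against the rest of the cortex library, the gated cells were higher in MGE lineage genes and lower in glutamatergic, intermediate progenitor and cell-cycle genes. A gene was counted as higher or lower at a ratio of summed CPM of at least 2-fold (pseudocount 1 CPM) among genes averaging 50 or more CPM over both groups. Against the 4352 other CTX cells this held for 11.6% of 3709 genes upward and 8.25% downward, and the median log2 ratio over all of them was 0.03. Of 18 MGE lineage genes 12 reached that level; 10 were higher, none was lower, and their median log2 ratio was 3.82. Genes that are high in the gated cells pass the level filter more readily, so the counts describe these cells only. All 16 cell-cycle genes were lower (median log2 ratio -1.76), as were 8 of 10 radial glia genes and 6 of 7 genes of Eomes intermediate progenitors. The other CTX cells mix 1155 high-Nestin cells, 943 high-Dcx cells and cells in neither class, so the gated cells were also set against the high-Dcx class alone.

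The 943 other high-Dcx CTX cells come from the same library and are called other neurons here. The gated cells exceeded them 2-fold or more in 6.06% of 3646 genes and fell below them as far in 4.66%. Sst was at 1270 CPM in the gated cells and at 5.96 CPM in the other neurons, a ratio of 213 (161 to 287). Nxph1 was at 684 against 4.88 CPM, a ratio of 140 (102 to 197). Slc32a1, the transporter that loads GABA into vesicles, was at 351 against 3.04 CPM, a ratio of 116 (76.6 to 180). All 3 were at low levels in the other neurons. The synaptic adhesion gene Nrxn3 (ratio 120), the zinc-finger factor Sp9 of ventral forebrain precursors (98.7), Erbb4 (107), and Nxph2, a relative of Nxph1 (106), were of the same order. Of the 12 MGE lineage genes that passed the level filter, 9 were higher and none lower, with a median log2 ratio of 3.29 against 0.07 over all genes. The ratio does not measure absence in the other neurons, since 0.848% of them had an Sst UMI at full depth. The 11 cells left out of the gate only for Neurod6 counted as other CTX cells. Of these 11 cells, 10 had Dcx and 7 had Sst. How much of the Sst, Nxph1 or Slc32a1 of the other neurons lay in such cells was not measured.

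In the other direction, most glutamatergic genes were lower in the gated cells, by widely differing amounts. Of 12 that passed the filter, 11 were lower and 1 was higher, with a median log2 ratio of -3.80. Neurod2 was at 740 CPM in the other neurons and at 2.58 CPM, which is 1 UMI, in the gated cells, so the 287-fold difference has an interval of 51.4 to 11326. Tbr1, at 332 against 2.58 CPM, likewise rests on 1 UMI (129-fold, 23.1 to 5081). The gate left out cells with Neurod6 while the other neurons kept them, so these differences are partly set by the selection. Pcp4, a calmodulin-binding protein gene, had 0 UMIs against 269 CPM, at least 34.8-fold lower. Other members of the list kept a clear level. Nfib, a nuclear factor I gene, was at 310 against 3709 CPM and had a UMI in 23 of the 66 gated cells, and the LIM homeobox gene Lhx2 was at 207 against 681 CPM in 18 cells. Of the 80 Lhx2 UMIs, 72.5% lay in the 4 deep cells. The 1 higher gene was Mef2c, a transcription factor used by both cortical neuron classes, at 511 CPM in the gated cells and 155 CPM in the other neurons (ratio 3.30, 2.83 to 3.83).

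Receptors and guidance genes split in both directions. Ackr3, the scavenging receptor for Cxcl12, was at 235 CPM against 33.4 CPM (ratio 7.04, 5.51 to 8.92). Cxcr4, the signaling receptor for the same ligand, was at 43.9 against 2.82 CPM from 17 and 26 UMIs (ratio 15.6, 7.93 to 29.8), below the level filter and seen in 15 of 66 cells. The ligand Cxcl12 itself had 1 UMI in the gated cells and stood at 279 CPM in the non-neural CTX cells. Of the semaphorin receptor genes, Nrp1 was lower at 23.2 against 263 CPM (11.3-fold, 5.96 to 24.8). Plxna4 was lower as well, at 10.3 against 140 CPM (13.5-fold, 5.27 to 49.7). After thinning, Plxna2 of the same kind was seen in 21 of 55 gated CTX cells and Nrp2 in 2 of 55. The ratios of Plxna2 and Nrp2 are not given here. Cnr1, the cannabinoid receptor of growing axons, was lower at 43.9 against 598 CPM (13.6-fold, 8.50 to 23.4), and Gap43, a growth-cone protein gene, at 31.0 against 349 CPM (11.3-fold, 6.45 to 21.8).

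Genes of neuronal maturation did not place the gated cells uniformly above the other neurons. Of 15 that passed, 4 were higher and 2 lower, with a median log2 ratio of 0.23. Gria1, an AMPA receptor subunit, was at 398 against 20.9 CPM (ratio 19.0, 15.3 to 23.6), Syt1, the vesicle calcium sensor, at 431 against 61.9 CPM (ratio 6.97, 5.83 to 8.29) and Mapt, the axonal protein tau, at 1270 against 430 CPM (ratio 2.95, 2.68 to 3.24). Mapt had a UMI in all 66 gated cells. Epha5, an ephrin receptor, was at 1962 against 1118 CPM, which did not reach 2-fold. Of 7 radial glia genes 4 were higher, and 58.8% of the radial glia UMIs of the gated cells lay in the 4 deep cells.

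The gated MGE cells passed the same gate inside the eminence, and the gated CTX cells differed from them in patterning factors, lineage genes, cell-cycle genes and maturation genes. Factors that pattern the MGE were at or near 0. Nkx2-1 (chr12:56531958-56536908, minus strand) had 1 UMI in the gated CTX cells (2.58 CPM) and stood at 809 CPM in 4973 gated MGE cells (313-fold, 56.3 to 12381). Lhx8, the LIM homeobox factor of MGE projection and cholinergic neurons, had 0 UMIs against 249 CPM, at least 32.2-fold lower. Lmo1, a LIM-only cofactor, was at 12.9 against 619 CPM. Within this comparison 8.98% of 3675 genes were higher 2-fold or more and 7.02% were lower.

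Genes of the MGE lineage were higher on balance. Of 14 MGE lineage genes that passed, 7 were higher and 2 lower, and the median log2 ratio was 1.15 against 0.04 over all genes. Sst was at 1270 against 31.4 CPM, a ratio of 40.4 (36.4 to 44.8). Nxph1 (684 against 71.0 CPM, ratio 9.64), Erbb4 (243 against 41.8, 5.81) and Maf (428 against 87.3, 4.91) also exceeded the MGE level. Npy did not: it was at 191 CPM in the gated CTX cells and 235 CPM in the gated MGE cells, a ratio of 0.814 with an interval of 0.639 to 1.02. Sox6 did not differ beyond counting error either (168 against 166 CPM, ratio 1.01, 0.781 to 1.29). The intervals of the Sst and Npy ratios did not overlap.

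Outside the MGE lineage list, Nxph2 (chr2:23321246-23401973, plus strand) had the highest ratio, at 219 against 0.576 CPM (381, 241 to 621). It was followed by the cell adhesion gene Chl1 at 266 against 2.63 CPM (101, 76.7 to 133). Gria1, of the maturation list, came next at 398 against 4.73 CPM (84.1, 67.8 to 104). The library as a whole can shift such ratios. Over all kept cells of both libraries the log2 CTX to MGE ratio was 1.20 for Nxph2, 2.51 for Chl1 and 0.97 for Gria1, against 7.13, 6.20 and 6.12 among gated cells. For Sst it was -1.03 over all kept cells and 5.29 among gated cells.

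Many gated MGE cells were still dividing, and 54.8% of them had an Mki67 or Top2a UMI at full depth against 22.7% of gated CTX cells. All 16 cell-cycle genes were lower in the gated CTX cells (median log2 ratio -1.99). Of 13 maturation genes, 10 were higher (median log2 ratio 1.77), Mapt among them at 1270 against 122 CPM. The comparison was therefore repeated with high-Dcx cells only, 57 in CTX and 2410 in MGE. Sst was then at 1440 against 64.4 CPM, Maf at 513 against 176 and Nxph1 at 799 against 150 CPM. Nkx2-1 was at 3.29 against 659 CPM and Lhx8 at 0 against 319 CPM. Npy was at 240 against 420 CPM. Sst, Maf and Nxph1 stayed above the MGE level by smaller amounts: the log2 ratio went from 5.29 to 4.46 for Sst, from 2.28 to 1.54 for Maf and from 3.25 to 2.40 for Nxph1. That of Npy went from -0.30 to -0.80.

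The machinery of GABA itself was similar to or above that of the eminences. Slc32a1 was at 351 CPM in the gated CTX cells, against 137 in MGE, 133 in LGE and 174 CPM in CGE. Gad1, which encodes the other GABA-synthesizing enzyme, was at 126 CPM, against 104 in MGE, 60.1 in LGE and 123 CPM in CGE. Among pan-GABAergic transcription factor genes outside the gate, 4 passed the level filter against each eminence. Of these, 3 were lower and none higher against MGE (median log2 ratio -2.09), and 2 were lower and none higher against LGE (-1.82) and against CGE (-1.60). Sp9 did not reach 2-fold, at 449 CPM against 688 in MGE and 316 CPM in LGE. Dlx6os1, the RNA antisense to Dlx6, was at 302 CPM against 691 CPM in MGE (2.29-fold lower, 1.91 to 2.77), and Dlx6 was at 12.9 against 110 CPM (8.49-fold, 3.64 to 26.2). Whether reads were counted by strand is not given in the sources used here, so the counts of this antisense pair are uncertain.

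Other interneuron and peptide genes were not all highest in the gated CTX cells. Calb1, which encodes the calcium-binding protein calbindin, was at 134 CPM in the gated CTX cells, 39.5 in MGE, 7.59 in LGE and 105 CPM in CGE. Tac1, the substance P precursor gene, was at 62.0 CPM, 3.74 in MGE, 103 in LGE and 12.9 CPM in CGE. Satb1, a chromatin organizer of MGE interneurons, was at 302 against 108 CPM in MGE (ratio 2.81, 2.32 to 3.37). The homeobox gene Cux2 was at 227 against 31.1 CPM in MGE (ratio 7.31, 5.83 to 9.08).

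Chemokine receptors were higher in the gated CTX cells than in gated cells of every eminence. Ackr3 was at 235 CPM, against 96.8 in MGE, 49.7 in LGE and 57.0 CPM in CGE. Cxcr4 was at 43.9 CPM, against 3.39 in MGE, 5.28 in LGE and 8.20 CPM in CGE. The Cxcr4 ratio to MGE was 12.9 (7.34 to 21.4) on 17 UMIs, and no gated CTX cell had more than 2. After thinning, Cxcr4 was seen in 9.09% of gated CTX cells (3.02% to 20.0%) and in 1.27% of high-Nestin CTX cells (0.676% to 2.16%). Among thinned cells with Lhx6, Ackr3 was seen in 51.4% in CTX (34.4% to 68.1%) and 53.3% in LGE (46.6% to 60.0%), which could not be told apart.

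**Figure D3:**
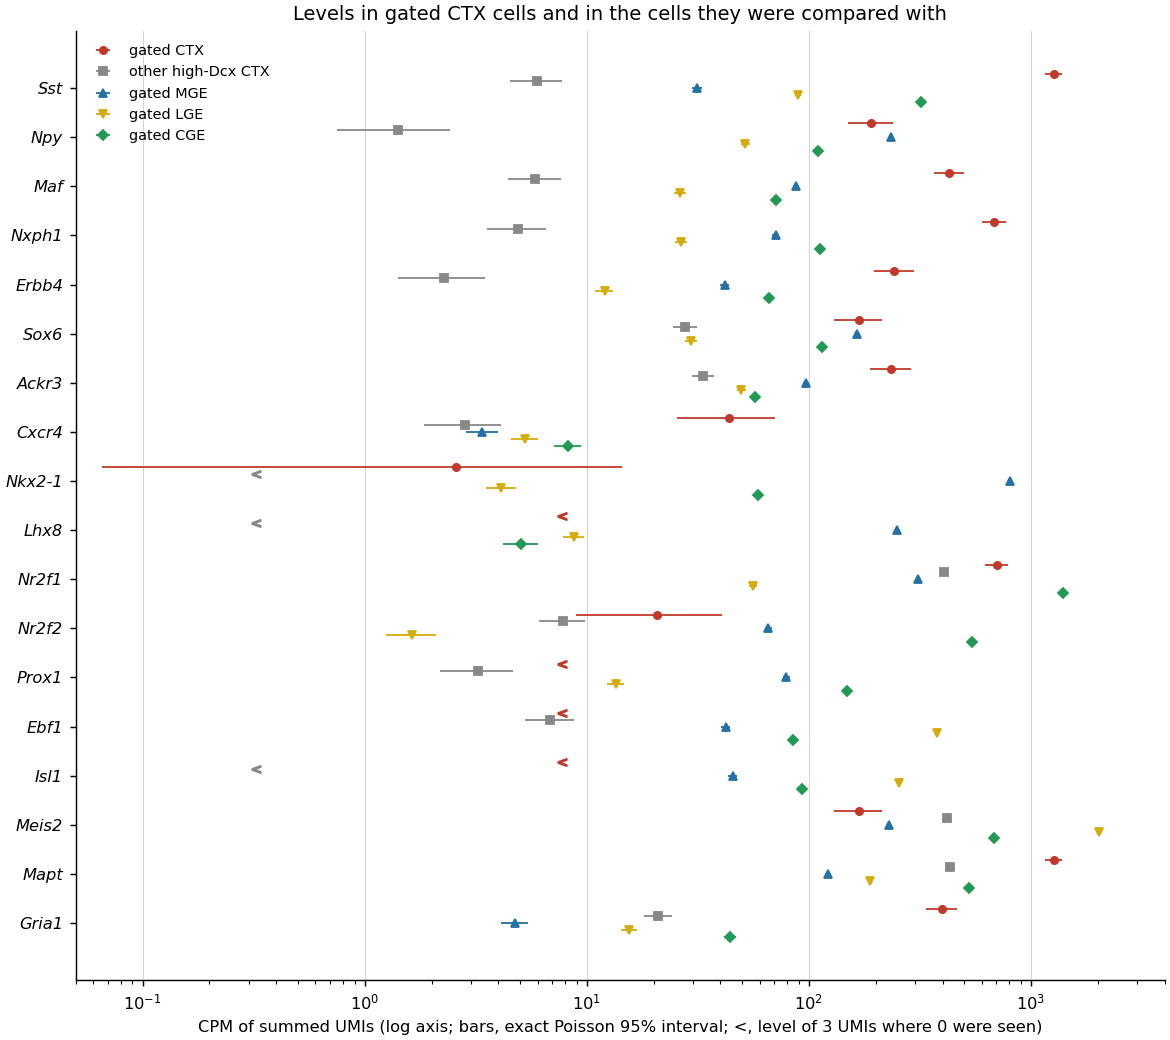
Level of each gene (x axis, CPM of summed UMIs, log scale) in gated CTX cells, other high-Dcx CTX cells and gated MGE, LGE and CGE cells; bars are exact Poisson 95% intervals and < marks the level of 3 UMIs where none was seen. Gated CTX cells sit at the right for Sst, Maf, Nxph1, Erbb4, Ackr3 and Cxcr4, and at or near 0 for Nkx2-1, Lhx8, Prox1, Ebf1 and Isl1.

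Against the 4604 gated LGE cells, the gated CTX cells were lower in most genes of the LGE and striatal lineage that passed the filter. Of 11, 8 were lower and none higher (median log2 ratio -3.58). Ebf1, a factor of the direct-pathway lineage, had 0 UMIs against 377 CPM, at least 48.7-fold lower. Six3 (0 against 324 CPM, at least 41.8-fold) and Isl1 (0 against 256, at least 33.0-fold) were likewise at 0. So was the zinc-finger homeobox gene Zfhx3 (0 against 329 CPM, at least 42.5-fold), which belongs to the pan-GABAergic list and not to these 11. Meis2, a homeobox factor of the LGE, was at 168 against 2019 CPM, and 72.3% of the 65 Meis2 UMIs in gated CTX cells lay in the 4 deep cells. Others were less far apart or present. Bcl11b, a zinc-finger factor of striatal and other neurons, was at 573 against 799 CPM, within 2-fold, and had a UMI in 60 of the 66 gated CTX cells. Foxp1 was at 56.8 against 313 CPM. Across the comparison 9.43% of 3711 genes were higher and 7.30% lower. Of 12 MGE lineage genes 11 were higher and none lower (median log2 ratio 2.81). Sst was at 1270 against 89.2 CPM (ratio 14.2, 12.9 to 15.7) and Npy at 191 against 51.8 CPM (ratio 3.69, 2.88 to 4.65).

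The gated CGE cells were the nearest of the 3 by number of genes, with 3.28% of 3715 genes higher 2-fold or more and 3.07% lower. These are 122 and 114 genes, and without the 4 deep cells they were 198 and 175. Of 4 CGE lineage genes that passed, 2 were lower and none was higher. Nr2f2, the nuclear receptor of CGE cells (chr7:70351944-70366735, minus strand), was at 20.7 against 541 CPM (26.2-fold, 13.3 to 60.6) and Prox1 at 0 against 149 CPM (at least 19.2-fold). Npas3, another gene of the list, was at 173 against 103 CPM (ratio 1.69, 1.30 to 2.15), below 2-fold. Six3, an LGE lineage gene, was at 0 against 239 CPM (at least 30.9-fold). Nr2f1, a related receptor (chr13:78188973-78199757, minus strand), stood apart from Nr2f2. It was at 702 CPM in the gated CTX cells, below CGE (1393) but above MGE (309) and LGE (56.2), and the other CTX cells were at 431 CPM. Of 12 MGE lineage genes 6 were higher than in gated CGE cells and none was lower (median log2 ratio 1.01). Sst was at 1270 against 321 CPM (ratio 3.96, 3.60 to 4.33) and Maf at 428 against 70.9 CPM (ratio 6.04, 5.12 to 7.09). The gated CGE cells were also further from division, as 28.2% had an Mki67 or Top2a UMI, and 9 of 13 cell-cycle genes were lower in the gated CTX cells.

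Lhx6 was detected in 44 gated CTX cells and not in 22, and MGE lineage genes were at like levels on both sides of this split. No MGE lineage gene among the 13 that passed differed by 2-fold (median log2 ratio 0.046), while 3.15% of 3711 genes were higher and 4.20% lower in the cells with Lhx6. Sst was at 1336 CPM with Lhx6 and 1157 CPM without (ratio 1.15, 0.955 to 1.40), and Maf at 470 and 358 CPM (ratio 1.31, 0.937 to 1.87). Slc32a1 (417 and 238 CPM, ratio 1.75, 1.18 to 2.66) was higher with Lhx6 beyond counting error when all cells were summed. The side without Lhx6 held 142639 UMIs, and deep cells of 34215, 12148 and 9296 UMIs were part of it. Of the 226 UMIs of the 6 GABA synthesis and transport genes, 10 lay in the 4 deep cells. The Slc32a1 ratio without the deep cells is not given here. Of the 22 cells without an Lhx6 UMI, 19 had Maf, 19 had Nxph1, 11 had Sst and 17 had at least 3 of the 5 lineage genes above. Other lists did differ. Of 8 radial glia genes 4 were lower with Lhx6, and of 5 LGE lineage genes 2 were lower and 1 higher. Nes was at 49.0 CPM with Lhx6 and 154 CPM without, and Meis2 at 89.9 and 301 CPM. The 4 deep cells moved these values, as without them the log2 ratio went from -1.63 to -0.04 for Nes, and the ratio for Sst turned to -0.40 on the log2 scale. After thinning, Dlx6os1 was seen in 81.1% of cells with Lhx6 (64.8% to 92.0%) and in 33.3% of those without (13.3% to 59.0%), whereas the intervals for Sst overlapped at 73.0% (55.9% to 86.2%) and 44.4% (21.5% to 69.2%).

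The same split was made in the eminences. In gated LGE cells Sst was at 1706 CPM with Lhx6 and 15.5 CPM without, and Maf at 434 and 7.77 CPM. In gated CGE cells Sst was at 923 and 128 CPM, and in gated MGE cells at 32.4 and 29.3 CPM. Sst thus differed widely by Lhx6 detection in LGE and CGE. In CTX and MGE the levels with and without Lhx6 were close, high on both sides in CTX and low on both sides in MGE.

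Cells with Lhx6 in the 4 libraries could thus be set side by side. There were 44 in CTX, 243 in LGE, 784 in CGE and 3463 in MGE. Sst was at 1336 CPM in CTX and 1706 in LGE, at 923 in CGE and at 32.4 CPM in MGE. After thinning, Sst was seen in 73.0% of these cells in CTX (55.9% to 86.2%), 44.0% in LGE (37.4% to 50.8%), 22.9% in CGE (20.0% to 26.1%) and 1.67% in MGE (1.26% to 2.16%). These 4 intervals did not overlap. Mean level and share ordered CTX and LGE differently.

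Nkx2-1 was most often seen in MGE. It was seen in 0 of 37 thinned Lhx6 cells in CTX, which allows a share of up to 8.11% (exact upper limit 9.49%), and in 8.44% in LGE, 20.6% in CGE and 75.1% in MGE, so CTX could not be told from LGE. Npy was seen in 27.0% in CTX (13.8% to 44.1%), 55.1% in LGE (48.4% to 61.7%), 31.7% in CGE and 29.3% in MGE, so CTX could not be told from CGE or MGE. Maf was seen in 75.7% in CTX (58.8% to 88.2%) and 65.8% in LGE (59.2% to 72.0%), which overlap, and in 35.9% in CGE and 23.5% in MGE.

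Restricting both sides to Lhx6 cells left the comparison with MGE much as before, with 10% of 3698 genes higher and 7.46% lower. Sst had a ratio of 41.2 (36.2 to 46.7), Nxph1 of 8.51 (7.30 to 9.87) and Maf of 4.27 (3.52 to 5.15). Lhx8 was at 0 against 333 CPM, at least 27.1-fold lower. Epha4, an ephrin receptor, was at 40.9 against 620 CPM (15.2-fold, 8.25 to 31.6).

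**Figure D4:**
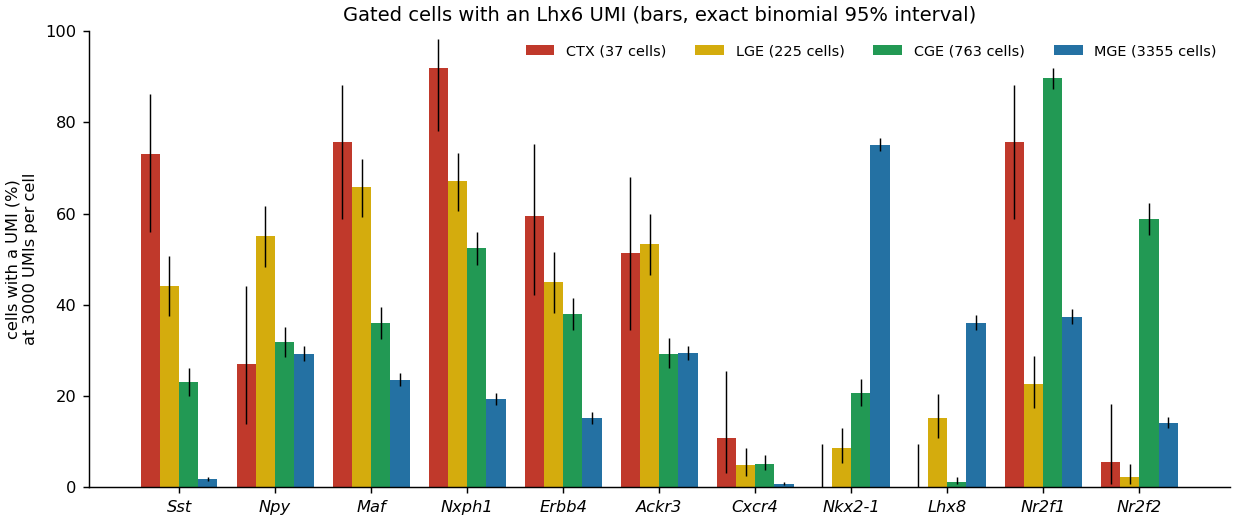
Share of gated cells with an Lhx6 UMI that had a UMI of each gene after thinning to 3000 UMIs (y axis, percent) in CTX, LGE, CGE and MGE; bars are exact binomial 95% intervals. Sst is highest in CTX, Nkx2-1 and Lhx8 are at 0 in CTX and highest in MGE, and Nr2f2 is highest in CGE.

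Each cell was also scored against the summed profiles of the gated LGE, MGE and CGE cells over 6570 genes, gate genes left out, and given to the profile under which its thinned counts were most likely. Of 55 gated CTX cells 52 were nearest the CGE profile (94.5%, 84.9% to 98.9%), 3 the LGE profile and 0 the MGE profile, which allows a share of up to 5.45%. The score is no reading of origin, as held-out cells show. Of held-out gated cells, 74.9% in LGE, 64.9% in MGE and 73.0% in CGE returned to their own library. Of those with Lhx6, 89.4% of the LGE cells (101 of 113) and 26.9% of the MGE cells (450 of 1675) were nearest the CGE profile as well. With other high-Dcx CTX cells added as a further choice, 0 of the 55 gated CTX cells went to it, while 91.3% of held-out cells of that group did.

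**Figure D5:**
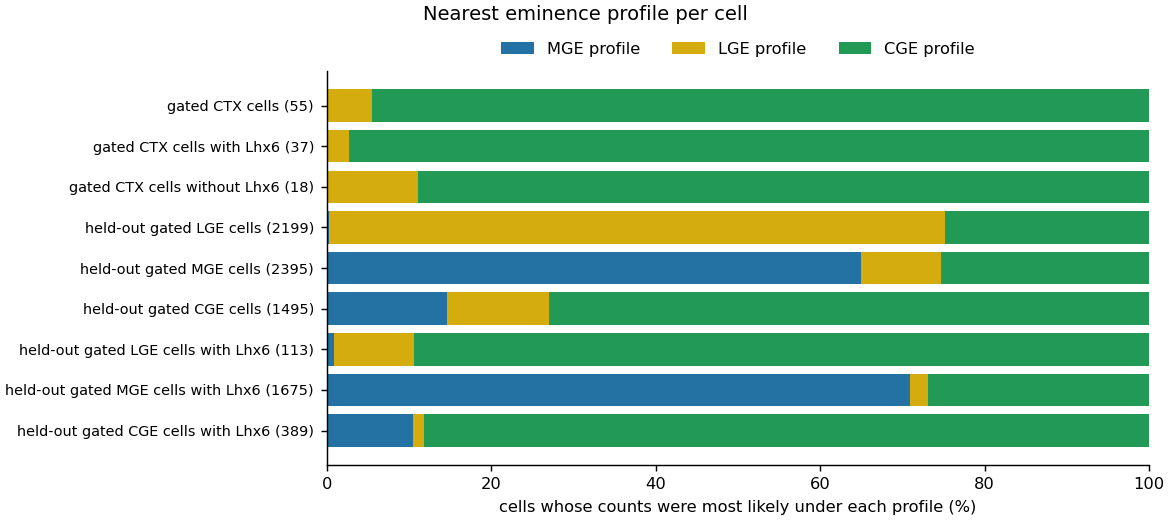
Share of cells (x axis, percent) whose counts were most likely under the summed MGE, LGE or CGE profile, for gated CTX cells and for held-out gated cells of each eminence; numbers of cells stand in parentheses. Gated CTX cells and held-out LGE and CGE cells with Lhx6 are mostly nearest the CGE profile, whereas held-out MGE cells with Lhx6 are mostly nearest the MGE profile.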

How the data were processed

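The deposited values were raw UMI counts per gene and cell barcode, which the authors made with Cell Ranger and aligned to GRCm38 (mm10); the file headers name version 3.0.2 and the submitters' processing notes 3.0.0. The annotation release is not given in the sources used here. Gene positions came from GENCODE annotation of GRCm38, matched by gene ID. The 4 libraries held 4301 to 6953 barcodes, of which 3681 to 5475 were kept. Members and gene lists were chosen with earlier results of these data known, and some genes are not reported here. Counts were summed over cells and scaled to CPM. Genes averaging 50 CPM or more over both groups were compared, with gate, mitochondrial and ribosomal genes left out and a pseudocount of 1 CPM for calls and log2 ratios, while ratios printed with intervals used none. A level of 0 was bounded by 3 UMIs over the group. Besides list genes, the text could name the 10 highest and 10 lowest ratios per comparison among genes averaging 100 CPM or more and seen in at least 10% of cells of the higher group. Non-neural cells held at least 3 genes of a vascular, mesenchymal or myeloid list. Doublets were scored by simulation and kept. Python 3.11.15, NumPy 2.4.6, SciPy 1.17.1 and scikit-learn 1.9.0 were used. The ratio and its interval were tested on simulated data.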

Additional observations from a re-analysis of the deposited data

How the results depend on the processing

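No paired analysis was possible because each region had 1 library and the labels give no replicate numbers. Of 1320 gene ratios recomputed, 937 moved by less than their interval, 381 moved by more and 2 reversed. Both reversed values were for Vim with against without Lhx6, whose log2 ratio of -1.28 became 2.37 without cycling cells and 2.39 without members above 9000 UMIs. The Sst ratio of the same split also changed sign without those members, as given above, but is not among these 2. Leaving those members out, or using high-Dcx cells only, was chosen after seeing the data. Counts of genes 2-fold higher and lower moved most with the level filter. At a mean of 20 CPM they were 781 and 732 against other CTX cells, 482 and 404 against other high-Dcx CTX cells, 678 and 562 against MGE, 687 and 587 against LGE, 277 and 325 against CGE, 495 and 666 for the Lhx6 split, and 789 and 625 for Lhx6 cells against MGE, since more genes were tested. The Lhx6 split, from 117 and 156, gave 215 and 266 with at least 3 gate genes, 296 and 511 after thinning, 74 and 103 with a pseudocount of 10 CPM, and 184 higher without cycling cells. Thinning gave 334 genes higher than in other high-Dcx CTX cells, from 221. Without cycling cells 151 genes were lower than in MGE (from 258), 224 higher and 158 lower than in LGE (from 350 and 271), and 177 lower in Lhx6 cells than in MGE Lhx6 cells (from 276). High-Dcx cells alone gave 279 genes higher than in other CTX cells (from 430) and 171 lower than in MGE. Without members above 9000 UMIs, 198 genes were higher and 175 lower than in CGE (from 122 and 114), and 100% of members were nearest the CGE profile with or without the CTX profile as a choice. Shares passing the gate were 61.8% (LGE), 78.9% (MGE) and 68.5% (CGE) at 3 gate genes, 87.4%, 92.1% and 86.2% at 1500 to 4500 genes, and 72.0%, 84.7% and 74.2% after thinning. Apart from the changes from fewer cells or more genes tested, the cause was not tested. With 387408 UMIs over 66 cells, a gene at 0 is bounded at 7.74 CPM.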

Other observations

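Reln, which encodes the secreted protein reelin of Cajal-Retzius cells and of some interneurons, was seen in 8 of the 66 gated CTX cells. All 8 had an Lhx6 UMI, and none was among the 19 gated cells without Sst. It was singled out after its values were seen.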
